A study of Mus musculus with 9 samples.

Results

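The genes described here are 10 interferon-stimulated effectors of antiviral defence, Mx1, Mx2, Rsad2, Cmpk2, Bst2, Isg20, Zbp1, Eif2ak2, Adar and Samhd1. They were taken by exact gene symbol from count files that list 40879 symbols, all 10 were found, and all 10 were among the 13251 genes with enough counts to test. Expression was measured in 9 RNA libraries of mouse type 2 conventional dendritic cells (cDC2s). The cells were isolated by flow cytometry after bone marrow had been grown for 9 days with 100 ng/ml recombinant human Flt3L, the growth factor that drives dendritic cell development. The A20iKO group (n = 3) carries floxed alleles of Tnfaip3, which encodes A20, an enzyme that edits ubiquitin chains on signalling proteins, together with Cre driven by CD11c, a gene switched on in dendritic cells and some other myeloid cells (genotype label A20fl/fl x CD11ccre). The IFNa group (n = 3) is wild type (WT) bone marrow to which interferon alpha was added on day 5, at a dose not given in the sources used here. The WT group (n = 3) is wild type bone marrow. The treatment field names IFNa for all 9 libraries, whereas titles and another label name it only for the IFNa group, and the groups here follow the titles. The series text gives 3 mice per group. Whether each library is 1 mouse is not given, nor are the strain and age of the animals, so p-values measure the spread between libraries.

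Type I interferon binds a receptor on the cell surface and activates the transcription complex ISGF3, which binds an interferon-stimulated response element (ISRE) near its target genes. The effectors act at different steps of infection. Mx proteins are dynamin-like GTPases that trap viral capsids, viperin (Rsad2) makes a nucleotide that ends viral RNA chains, tetherin (Bst2) holds budding virions at the membrane, Isg20 and Samhd1 degrade RNA and deoxynucleotides, and Zbp1, Eif2ak2 and Adar bind double-stranded or Z-form nucleic acid. In dendritic cells, which take up viral material to present it to T cells, these genes are expressed at a resting level and are known to be raised by interferon.

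Promoter sequences of 7 of the 10 genes were found in RefSeq tables of the mouse build GRCm38.p6, each covering 250 bases before to 50 bases after a transcript start. The files' own counts were made on GRCm39, so these positions apply to GRCm38.p6 only. Mx1, Mx2 and Zbp1 are named without a sequence. The ISRE core was searched on both strands as GAAA, any 2 bases and GAAA, and it occurred in 3 of the 7 genes, Rsad2, Bst2 and Eif2ak2, and in 3.99% of 27025 genes with promoters of the same length. The Rsad2, Bst2 and Eif2ak2 promoters are printed because they hold this core, and that of Cmpk2 because Cmpk2 is the gene next to Rsad2 and holds none in this window. Capitals mark the ISRE core in either orientation, and each sequence is given 5′ to 3′ along the gene's own strand.
Rsad2 (chr12:26456403-26456702, minus strand): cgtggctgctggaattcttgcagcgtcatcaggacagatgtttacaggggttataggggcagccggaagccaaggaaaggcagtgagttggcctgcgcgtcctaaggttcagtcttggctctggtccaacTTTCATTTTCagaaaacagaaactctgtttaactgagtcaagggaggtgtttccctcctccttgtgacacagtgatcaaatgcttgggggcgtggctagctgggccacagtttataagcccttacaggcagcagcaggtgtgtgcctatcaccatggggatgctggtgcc
Bst2 (chr8:71537423-71537722, minus strand): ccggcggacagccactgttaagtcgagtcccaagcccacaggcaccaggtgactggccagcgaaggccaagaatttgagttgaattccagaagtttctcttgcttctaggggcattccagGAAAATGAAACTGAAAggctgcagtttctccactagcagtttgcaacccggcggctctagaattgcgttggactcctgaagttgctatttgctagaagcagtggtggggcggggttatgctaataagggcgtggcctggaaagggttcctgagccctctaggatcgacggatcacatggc
Eif2ak2 (chr17:78882523-78882822, minus strand): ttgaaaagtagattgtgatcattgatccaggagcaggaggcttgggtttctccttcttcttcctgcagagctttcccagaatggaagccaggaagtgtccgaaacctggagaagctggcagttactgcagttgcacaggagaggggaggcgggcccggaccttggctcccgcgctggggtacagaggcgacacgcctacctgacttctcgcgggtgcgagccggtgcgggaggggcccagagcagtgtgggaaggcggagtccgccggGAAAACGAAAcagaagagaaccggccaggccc
Cmpk2 (chr12:26468965-26469264, plus strand): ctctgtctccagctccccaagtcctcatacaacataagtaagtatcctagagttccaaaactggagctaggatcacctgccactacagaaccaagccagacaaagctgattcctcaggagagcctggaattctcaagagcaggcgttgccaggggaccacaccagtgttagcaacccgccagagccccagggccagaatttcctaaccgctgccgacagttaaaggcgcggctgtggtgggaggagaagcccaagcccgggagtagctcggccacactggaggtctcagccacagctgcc

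Counted from 1 at the first transcribed base, with -1 the base before it, the core lay at -120 to -111 in Rsad2, in reverse orientation. In Bst2 a pair of overlapping cores ran from -130 to -115, and in Eif2ak2 the core lay inside the transcript at 19 to 28. A gamma-activated site, TTCNNNGAA, occurred in at least 1 promoter of 5 of the 7 genes (Bst2, Isg20, Eif2ak2, Adar and Samhd1) and in 9.55% of all genes, and in Bst2 it overlapped the ISRE core. The loose NF-kB pattern GGG, any 5 bases and CC, in either orientation, occurred in 6 of the 7 genes, all but Samhd1, and in 53.5% of all genes. Isg20 and Adar each have 3 annotated starts, which gives them more chances of a match. These matches are letters in a window, not binding sites. Each search was exact, so a gene without a match may still hold a near match. At Adar start 3 by position, GAAAGTGAAC is 1 base off the ISRE core and was not counted.

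Total counts per library ranged from 6900598 to 10552756, and levels below are CPM, a gene's counts per 1000000 counts of its library, with the library total scaled by TMM factors to correct for differences in RNA makeup. Libraries carry 3' tags, so longer transcripts do not give more tags. How multiply matching and overlapping reads were counted is not given, so levels of different genes compare only roughly. Tnfaip3, the gene that is floxed, had 37.4, 53.9 and 39.6 CPM in A20iKO, 7.94, 9.72 and 11 CPM with IFNa and 22.7, 6.81 and 4.26 CPM in WT. Its tags were called higher in A20iKO than in WT (3.86-fold, edgeR adjusted p = 0.028) and than with IFNa (4.58-fold, edgeR adjusted p = 0.0257). Leaving out single libraries lost these calls in some fits, with an edgeR adjusted p of up to 0.113 and 0.114. A tag outside the deleted exons, which the sources used here do not name, checks nothing about the deletion. Summed levels of 8 cDC2 markers were 1000 to 1070 CPM in A20iKO, 1600 to 1940 with IFNa and 1660 to 2290 in WT, with every marker present in each group. Of these 8, 2 rose (Sirpa and Clec4a4) and 6 fell in A20iKO, and 1 fell with IFNa. Summed levels of 10 monocyte and macrophage markers were 3120 to 3260 CPM in A20iKO, 2150 to 2630 with IFNa and 1360 to 1670 in WT. Of these 10, 7 rose and 1 fell in A20iKO, and 3 rose (Ly6c2, Apoe and Mertk) and 2 fell (Lyz2 and Adgre1) with IFNa. Ly6c2 alone was at 740 ± 115 CPM in A20iKO, 678 ± 103 with IFNa and 26 ± 10.6 in WT (SD, n = 3 each). Summed cDC1 markers were 718 to 937 CPM in A20iKO, 1270 to 1480 with IFNa and 1550 to 1870 in WT. Summed neutrophil markers were 203 to 283 CPM in A20iKO, 269 to 334 with IFNa and 85.5 to 101 in WT, with Ly6g at 0 in all groups. Prtn3 and Mpo made up most of the neutrophil sum in A20iKO, at means of 174 and 65.3 CPM against 0.593 and 1.79 in WT. Means of S100a8 and S100a9 were 5.98 and 4.84 CPM in A20iKO and 36.4 and 47.8 in WT. The neutrophil genes thus differed between the groups, as S100a8 and S100a9 fell in A20iKO and rose with IFNa. Prtn3 rose in both, and Mpo was called higher over WT in A20iKO only. The part of these cells in the results below was not tested. Stromal transcripts, 6 genes such as Col1a1, varied within every group and reached 3890 CPM in A20iKO library 1, 4240 in IFNa library 3 and 3790 in WT library 2, against 400 to 2090 CPM in the other libraries. In sorted bulk RNA, fewer cells of a type and less RNA per cell cannot be told apart.

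All 10 effectors were higher with IFNa than in WT, from about 2-fold for Samhd1 to 49.7-fold for Rsad2, and 7 of the 10 were also higher in A20iKO than in WT. The order of the mean levels was IFNa, then A20iKO, then WT for every one of them. Rsad2, Zbp1, Cmpk2 and Isg20, which had the 4 lowest means in WT, had the largest changes in both comparisons. Mx1, Mx2 and Samhd1 rose with IFNa but did not pass the test in A20iKO. By edgeR's quasi-likelihood test with Benjamini-Hochberg adjustment over all genes, 10 of 10 members were called higher with IFNa and none lower, against 2.4% and 0.702% of all genes tested (3.1% in either direction), and the groups' libraries did not overlap for any of the 10, against 9.77% of all genes. In A20iKO against WT 7 of 10 were called higher and none lower, against 5.77% and 4.91% of all genes (10.7% in either direction), and 8 of 10 had no overlap, against 15.4%. In A20iKO against IFNa 3 of 10 were called lower and none higher, against 3.41% and 2.05% of all genes (5.46% in either direction), and 9 of 10 had no overlap, against 12.3%. The median log2 fold change of the members was 2.48, 1.55 and -1.02 in the 3 comparisons in that order, and that of all genes was -0.02, -0.01 and 0.02. No member moved the other way in any comparison by edgeR, DESeq2 or limma-voom, also at an unadjusted p under 0.05. The members were chosen as interferon-stimulated genes, so their direction with IFNa was known beforehand, and the 2 comparisons with WT share their WT libraries. A20iKO against IFNa sets a genotype against a treatment of WT cells, so both differ between these groups.

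**Figure D1:**
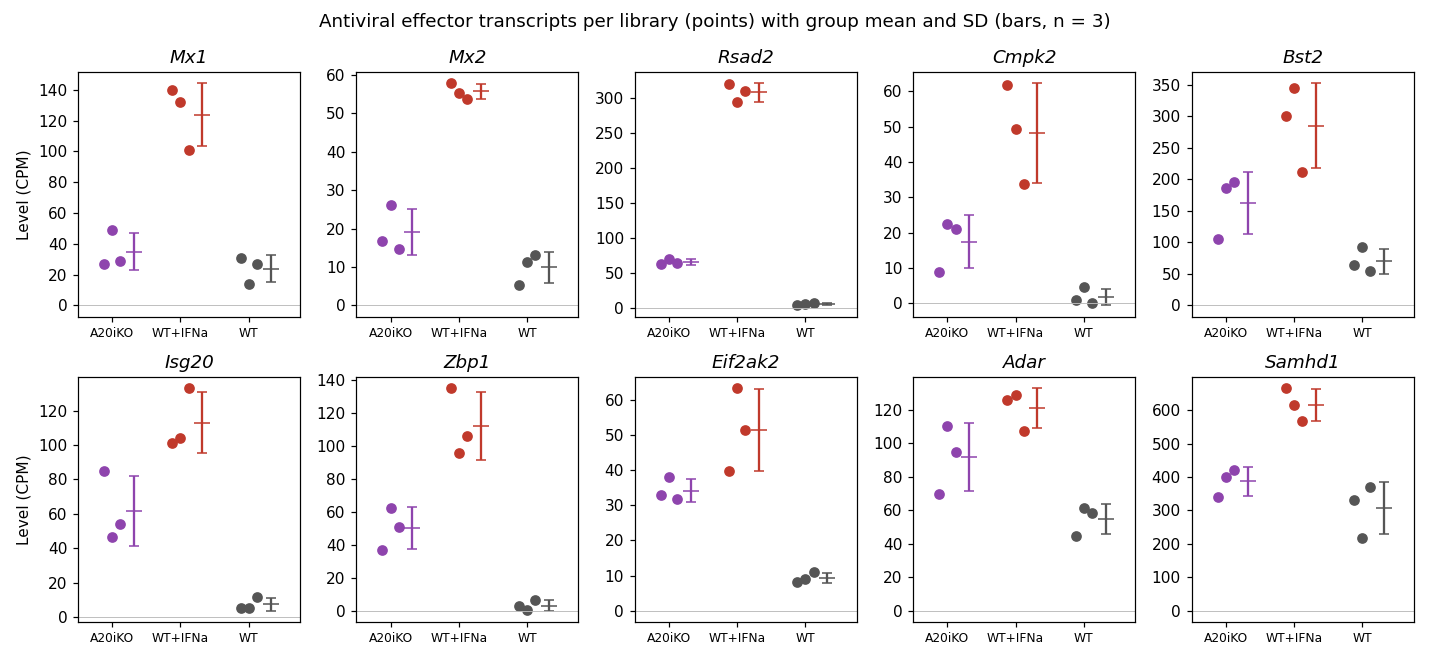
Level in CPM (vertical axis, linear, own scale per gene) of the 10 effectors in each library. Points are libraries 1, 2 and 3 from left to right, bars the mean ± SD (n = 3) of A20iKO, IFNa-treated WT (WT+IFNa) and WT. Rsad2 and Isg20 have 3 separate groups of points, whereas the A20iKO and WT points of Mx1 and Samhd1 overlap.

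**Figure D2:**
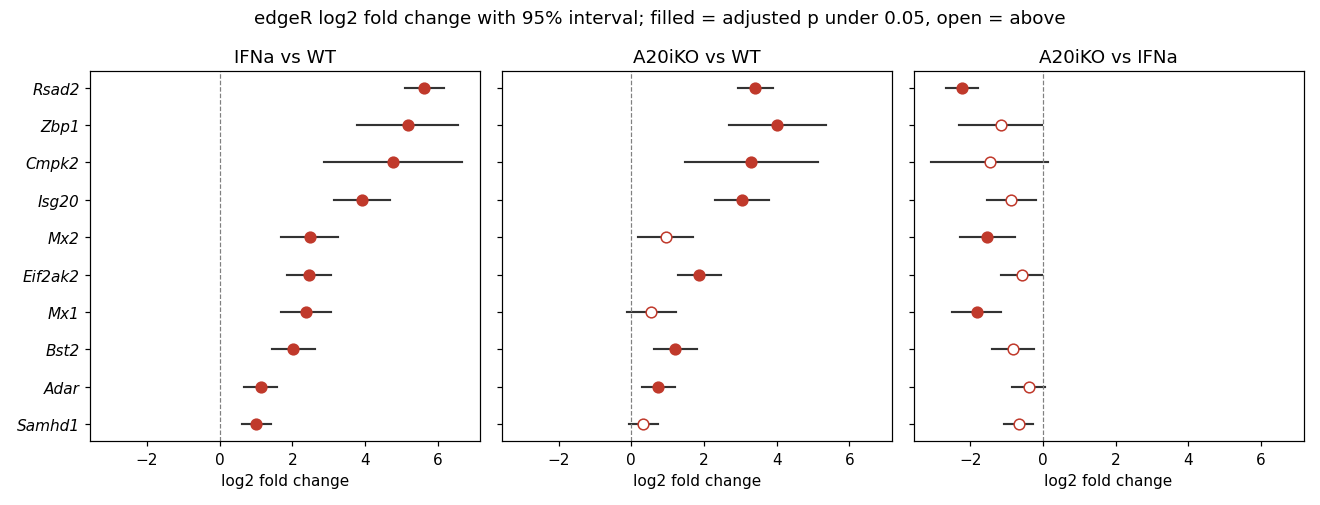
Log2 fold change (horizontal axis) with its 95% interval for the 10 effectors in IFNa against WT, A20iKO against WT and A20iKO against IFNa, in 1 panel each on a common axis. Filled circles passed the edgeR test and open circles did not. All 10 are filled in the first panel, 7 in the second and 3 (Rsad2, Mx1 and Mx2) in the third.

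Mx1 and Mx2 are neighbours in the genome separated by 1 gene, Fam3b, and encode the Mx GTPases, Mx1 acting in the nucleus and Mx2 in the cytoplasm in mice that carry working alleles. Both are classed as transcribed pseudogenes in RefSeq's GRCm38.p6, which was built from the C57BL/6J strain, and the counts measure transcript whether or not it encodes a full protein. Mx1 had 27, 48.9 and 29.1 CPM in A20iKO libraries 1, 2 and 3, 140, 132 and 101 CPM with IFNa, and 30.9, 13.9 and 26.8 CPM in WT. The IFNa libraries all lay above the other 6, and the A20iKO and WT libraries overlapped. Mx1 was 5.19-fold higher with IFNa than in WT (log2 fold change 2.37, SE 0.321; edgeR adjusted p = 0.000703). It did not pass in A20iKO against WT, where the log2 fold change was 0.55 with a 95% interval of -0.121 to 1.22 (edgeR adjusted p = 0.339).

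Mx2 had 16.7, 26.1 and 14.8 CPM in A20iKO, 57.9, 55.3 and 53.8 CPM with IFNa and 5.39, 11.3 and 13.1 CPM in WT. The 3 groups did not overlap, and the IFNa libraries lay within 3.65% of each other as a coefficient of variation, against 31.4% in A20iKO and 40.6% in WT. The rise with IFNa was 5.6-fold (log2 fold change 2.49, SE 0.363; edgeR adjusted p = 0.00138), close to that of Mx1. In A20iKO against WT the log2 fold change was 0.95 with a 95% interval of 0.19 to 1.71 before adjustment for the number of genes, and the call failed it (edgeR adjusted p = 0.117). Both Mx genes were lower in A20iKO than with IFNa, Mx1 by 3.54-fold (edgeR adjusted p = 0.00359) and Mx2 by 2.9-fold (edgeR adjusted p = 0.0204). The Mx2 call was lost without IFNa library 1, 2 or 3 or A20iKO library 1 or 3 (edgeR adjusted p = 0.0886, 0.0706, 0.0533, 0.0725 and 0.102). How reads that fit both Mx genes were counted is not given, so the split between them is uncertain.

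Rsad2 encodes viperin, a radical enzyme that converts CTP into a chain-terminating nucleotide. It had 62.7, 70.5 and 64.9 CPM in A20iKO, 320, 294 and 310 CPM with IFNa and 4.11, 6.81 and 7.7 CPM in WT. The 3 groups stood far apart, and no other member had so little spread relative to its change. Rsad2 rose 49.7-fold with IFNa (log2 fold change 5.63, SE 0.242; edgeR adjusted p = 3.12e-08) and 10.6-fold in A20iKO (log2 fold change 3.41, SE 0.223; edgeR adjusted p = 9.56e-07). It was 4.66-fold lower in A20iKO than with IFNa (log2 fold change -2.22, SE 0.203; edgeR adjusted p = 2.9e-05), and all 3 calls held under each of the 20 other settings tried. Its rank by fold change was 121 of 13251 genes with IFNa and 456 in A20iKO.

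Cmpk2, a mitochondrial kinase of UMP and CMP, lies beside Rsad2 on chromosome 12. It had 8.92, 22.4 and 21.1 CPM in A20iKO, 61.8, 49.2 and 33.7 CPM with IFNa and 0.979, 4.54 and 0 CPM in WT. The WT values rest on 10, 34 and 0 counts, and a count of 0 in WT library 3 allows up to 0.304 CPM, a bound that covers counting error only. The groups did not overlap, yet the coefficient of variation in WT was 130%, so the size of the rise is poorly fixed. Its log2 fold change was 4.77 with IFNa (SE 0.884; edgeR adjusted p = 0.00829) and 3.31 in A20iKO (SE 0.844; edgeR adjusted p = 0.0236). Without WT library 2 these became 6.58 and 5.09, and without WT library 3 they were 4.16 and 2.697. The A20iKO call was lost without A20iKO library 2 or 3 or WT library 1 (edgeR adjusted p = 0.0678, 0.0635 and 0.0749), and in a fit of these 2 groups only (0.112). Against IFNa, Cmpk2 in A20iKO had a log2 fold change of -1.46 with a 95% interval of -3.07 to 0.149 and did not pass (edgeR adjusted p = 0.369).

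Bst2 encodes tetherin, which anchors enveloped virions to the cell, and its protein is also a surface marker of mouse plasmacytoid dendritic cells. It had 106, 186 and 195 CPM in A20iKO, 300, 344 and 212 CPM with IFNa and 63.7, 92.3 and 54.4 CPM in WT. Neither treated nor A20iKO libraries overlapped with WT, and IFNa library 3 lay near the upper A20iKO libraries. Bst2 rose 4.07-fold with IFNa (log2 fold change 2.03, SE 0.275; edgeR adjusted p = 0.000714) and 2.32-fold in A20iKO (log2 fold change 1.21, SE 0.269; edgeR adjusted p = 0.0102). The A20iKO call was lost without A20iKO library 3 or WT library 3 (edgeR adjusted p = 0.0516 and 0.0545). In A20iKO against IFNa the log2 fold change was -0.81 with a 95% interval of -1.39 to -0.238 and an edgeR adjusted p of 0.111.

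Because Bst2 marks plasmacytoid cells, 10 other markers of that cell were read beside it, and they did not move together. Their summed level was 944 to 1220 CPM in A20iKO, 929 to 1040 with IFNa and 742 to 900 in WT. Klk1 had no count in A20iKO, 26 counts over the IFNa libraries and 1 over the WT libraries. Siglech, a lectin typical of that cell, was at 62.8 ± 13.6 CPM in A20iKO, 159 ± 28.2 with IFNa and 241 ± 29.4 in WT (SD, n = 3 each), so that it was highest in WT where Bst2 was lowest. It fell in A20iKO against WT (edgeR adjusted p = 4.12e-05), and did not pass with IFNa (edgeR adjusted p = 0.161). Of the 9 markers tested, 6 rose and 2 fell in A20iKO, so most moved the same way as Bst2. Ly6d had 109 ± 40.8 CPM in A20iKO, 12.3 ± 1.86 with IFNa and 5.6 ± 2.49 in WT, and Cox6a2 had 45.2 ± 1.51, 10.1 ± 0.371 and 10.3 ± 3.13 CPM in A20iKO, IFNa and WT. Pacsin1 (31 ± 8.28 CPM in A20iKO, 9.58 ± 0.569 in WT), Tcf4 (528 ± 25.4 and 311 ± 48.8), Spib (138 ± 22.3 and 82.2 ± 15.8) and Runx2 (160 ± 48 and 74.8 ± 22.4) were the other 4 that rose. With IFNa 2 rose, Spib and Runx2, and none fell, and without IFNa library 1, A20iKO library 3 or WT library 2 none was called by edgeR. The part of such cells in the Bst2 level was not tested.

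Isg20, an exonuclease that degrades single-stranded RNA, was among the strongest responders in both comparisons. Its level was 85, 46.4 and 54.2 CPM in A20iKO, 101, 104 and 133 CPM with IFNa and 5.29, 5.34 and 11.6 CPM in WT. The 3 groups did not overlap. Isg20 rose 15.1-fold with IFNa (log2 fold change 3.92, SE 0.353; edgeR adjusted p = 1.59e-05) and 8.31-fold in A20iKO (log2 fold change 3.06, SE 0.343; edgeR adjusted p = 7.16e-05), and both calls held in all 20 other settings. It was the only member that was highest in A20iKO library 1, where 7 of the 10 members were at their lowest of the 3 A20iKO libraries. That library also had the high stromal level given above, and the part of this in the members' levels was not tested. In A20iKO against IFNa the log2 fold change was -0.87 with a 95% interval of -1.54 to -0.194 (edgeR adjusted p = 0.152).

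Samhd1, which cleaves deoxynucleotides that reverse transcription needs, had the highest CPM of the 10 in every library. It had 339, 400 and 422 CPM in A20iKO, 666, 615 and 568 CPM with IFNa and 332, 219 and 369 CPM in WT. IFNa libraries lay above all others, and A20iKO and WT overlapped. The rise with IFNa was 2.01-fold (log2 fold change 1.01, SE 0.183; edgeR adjusted p = 0.0074). In A20iKO against WT the log2 fold change was 0.33 with a 95% interval of -0.0591 to 0.728, which includes no change (edgeR adjusted p = 0.319). That interval stops short of a doubling, but overlaps the 95% interval of the rise with IFNa, 0.609 to 1.4. Neither is adjusted for the number of genes. Against IFNa, A20iKO was lower by 0.67 on the log2 scale without overlap, just short of the threshold (edgeR adjusted p = 0.0513). That value passed the threshold in 11 of the 20 other settings, with adjusted p from 0.0012 to 0.192.

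Zbp1 senses Z-form nucleic acid and can start necroptosis through the kinase RIPK3. It had 37, 62.2 and 50.8 CPM in A20iKO, 135, 95.4 and 106 CPM with IFNa and 2.55, 0.134 and 6.29 CPM in WT. The groups did not overlap, and the WT values rest on 26, 1 and 62 counts. Zbp1 rose 36.2-fold with IFNa (log2 fold change 5.18, SE 0.64; edgeR adjusted p = 0.000324) and 16.2-fold in A20iKO (log2 fold change 4.02, SE 0.615; edgeR adjusted p = 0.000825). Without WT library 3 these log2 fold changes were 6.27 and 5.10, and both calls held in every setting. In A20iKO against IFNa the log2 fold change was -1.16 with a 95% interval of -2.3 to -0.0269 (edgeR adjusted p = 0.286).

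Eif2ak2 encodes PKR, the kinase that halts translation when it binds double-stranded RNA. It had 32.9, 38.1 and 31.7 CPM in A20iKO, 39.8, 63.3 and 51.3 CPM with IFNa and 8.03, 8.95 and 10.9 CPM in WT. All 6 A20iKO and IFNa libraries lay well above WT. The rise was 5.52-fold with IFNa (log2 fold change 2.47, SE 0.281; edgeR adjusted p = 0.000159) and 3.67-fold in A20iKO (log2 fold change 1.88, SE 0.277; edgeR adjusted p = 0.000625), in both cases held in all 20 other settings. The difference between A20iKO and IFNa was -0.59 on the log2 scale with a 95% interval of -1.16 to -0.0166 and did not pass (edgeR adjusted p = 0.283). In GRCm38.p6 the noncoding Gm26637 overlaps Eif2ak2. It had 45, 55 and 40 counts in A20iKO, 113, 137 and 89 with IFNa and 25, 44 and 73 in WT, and strand and overlap settings of the counting are not given.

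Adar edits adenosine to inosine in double-stranded RNA, which keeps the cell's own RNA from being sensed as foreign. It is transcribed from an interferon-inducible start and from constitutive ones, and 3' tags sum them. Adar had 69.7, 110 and 95 CPM in A20iKO, 126, 129 and 107 CPM with IFNa and 44.7, 61.1 and 58.5 CPM in WT. The A20iKO and IFNa libraries overlapped, and both groups lay above WT. Adar rose 2.2-fold with IFNa (log2 fold change 1.14, SE 0.21; edgeR adjusted p = 0.00804) and 1.67-fold in A20iKO (log2 fold change 0.74, SE 0.209; edgeR adjusted p = 0.0375). The A20iKO call was the least stable of the 7. It was lost without IFNa library 2, A20iKO library 2 or 3 or WT library 1 or 3 (edgeR adjusted p = 0.0519, 0.191, 0.119, 0.113 and 0.083), with scaling by library size alone (0.0506), with the replicate number as a block (0.0546) and in a fit of these 2 groups only (0.0834). In A20iKO against IFNa the log2 fold change was -0.40 with a 95% interval of -0.843 to 0.0531 (edgeR adjusted p = 0.388).

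Setting the A20iKO level within the span between WT and IFNa shows how unevenly the members sat. As a share of the rise of the mean from WT to IFNa, the rise in A20iKO was 59.1% for Eif2ak2, 56.1% for Adar, 51.7% for Isg20, 43.1% for Zbp1 and 42.9% for Bst2. It was 33.8% for Cmpk2, 25.9% for Samhd1, 20.2% for Mx2, 19.8% for Rsad2 and 11.1% for Mx1. These shares use the same WT libraries on both sides, and are given as a description without a test. They are taken in CPM, and their order depends on that scale. As log2 fold changes over WT, Rsad2 rose 3.41 in A20iKO and 5.63 with IFNa, Samhd1 0.33 and 1.01, and Mx1 0.55 and 2.37. The direct test of A20iKO against IFNa, which works on the log2 scale, called Rsad2, Mx1 and Mx2. These hold the 3 lowest shares in CPM, drawn from the same libraries. The other 7 were below the IFNa level in mean, 5 of them with a 95% interval that excludes 0 before adjustment, so a failed call there does not show equal levels. The count of 3 depended on the fit, with 2 to 6 when single libraries were left out (6 without WT library 2), 5 by DESeq2 and 8 by limma-voom. The count of 7 in A20iKO against WT was 4 without A20iKO library 3.

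The rest of the pathway was read from lists of genes named for their roles. Of 24 other core antiviral genes, all tested, 20 were higher in A20iKO than in WT and 23 with IFNa than in WT, none was lower in either, and 16 were lower in A20iKO than with IFNa. The count of 16 was 9 without IFNa library 2 and 10 without IFNa library 1. The median log2 fold changes were 2.78, 3.95 and -1.21 in that order. The exception with IFNa was Trim25, a ubiquitin ligase of RNA sensing (edgeR adjusted p = 0.129). Its log2 fold change was 0.65 with a 95% interval of 0.218 to 1.08, without overlap. DESeq2 and the edgeR fit with the stromal covariate called it higher. Ifi44 had 70.5 ± 22 CPM in A20iKO, 472 ± 34.9 with IFNa and 1.12 ± 0.663 in WT. Ifit3, which binds viral RNA ends with its relatives, had 69.2 ± 8.86, 466 ± 41.2 and 1.58 ± 1.09 CPM in A20iKO, IFNa and WT (SD, n = 3 each). Ifitm3, which blocks virus entry, changed less, with 1720 ± 92.8 CPM in A20iKO, 3550 ± 122 with IFNa and 1260 ± 134 in WT. Its A20iKO call was lost without A20iKO library 2 or 3 or WT library 2, with an edgeR adjusted p of up to 0.116, and also with the replicate number as a block (0.0523), in the 2-group fit (0.06) and with no low-count filter (0.0583).

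Of 12 receptor and ISGF3 signalling genes, 4 were higher in A20iKO and 6 with IFNa by edgeR. DESeq2 called 6 and 8 higher, and limma-voom 5 and 6. None was lower in either by edgeR, DESeq2 or limma-voom, also at an unadjusted p under 0.05. Irf7, a transcription factor that amplifies interferon, had 106 ± 23.9 CPM in A20iKO, 475 ± 56.4 with IFNa and 9.06 ± 2.51 in WT (SD, n = 3 each). Usp18, which restrains the receptor, had 48.6 ± 14.2, 126 ± 20.4 and 6.37 ± 4.94 CPM in A20iKO, IFNa and WT, and Irf1 had 190 ± 18.1, 250 ± 18 and 87.9 ± 4.77 CPM. Stat2 had 53.3 ± 6.54 CPM in A20iKO, 149 ± 43.4 with IFNa and 36.8 ± 2.53 in WT, rose with IFNa (edgeR adjusted p = 0.000171) and did not pass in A20iKO (edgeR adjusted p = 0.179). Stat2 and Irf7 were lower in A20iKO than with IFNa, and the receptor chain Ifnar1 was higher there (92.7 ± 10.1 and 51.9 ± 6.42 CPM; edgeR adjusted p = 0.0212). The Ifnar1 call was lost without IFNa library 1 or 2 or A20iKO library 2 or 3, with an edgeR adjusted p of up to 0.109. In A20iKO against IFNa the count of lower genes in this list depended on the tool. It was 2 of 12 by edgeR, and 6 by DESeq2 and by limma-voom, which called 646 and 485 of all 13251 genes lower. At an unadjusted p under 0.05, 7 were lower and 1 higher by each tool, where 16.6% of all genes passed in either direction by edgeR.

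Among 14 tested genes of nucleotide supply and nucleic acid clearance, 4 rose in A20iKO and 1 with IFNa. Dck, which phosphorylates deoxycytidine in the salvage pathway, rose in both, with 54.8 ± 11.3 CPM in A20iKO, 85.6 ± 14.2 with IFNa and 19.1 ± 4.02 in WT (SD, n = 3 each). Tk1 and the ribonucleotide reductase subunits Rrm1 and Rrm2, which supply deoxynucleotides in dividing cells, rose in A20iKO and did not pass with IFNa, and 2 of these calls were weak. Rrm1 lost its call without IFNa library 2, A20iKO library 2 or 3 or WT library 1 or 3, and Rrm2 without IFNa library 2, A20iKO library 2 or 3 or WT library 2 or 3 (edgeR adjusted p of up to 0.148 and 0.165). Both also lost it with the replicate number as a block (0.0522 and 0.0811), and Rrm2 in the 2-group fit (0.0626). Whether the 2 changes over WT differ was tested by A20iKO against IFNa, where none of the 14 passed in the edgeR fit used throughout, 4 had an unadjusted p under 0.05 (16.6% of all genes did) and 2 passed by DESeq2 and 2 by limma-voom. Tk1 lay at the threshold, with 101 ± 24 CPM in A20iKO and 56.8 ± 10.8 with IFNa (edgeR adjusted p = 0.05 after rounding). It passed in edgeR fits with each of the other 3 scalings of the same counts (0.0349 to 0.0414), both other filters (0.0192 and 0.0409), the stromal covariate (0.0386) and the 2-group fit (0.039), and without A20iKO library 1 or WT library 1 or 2. The exonuclease gene Trex1 is listed with 0 counts in all 9 libraries and was not tested.

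Of the 5 death partners of Zbp1, Mlkl, the pore-forming executor of necroptosis, was called higher in both groups and the other 4, Ripk1, Ripk3, Casp8 and Fadd, in neither. Mlkl had 12.3, 7.93 and 9.99 CPM in A20iKO, 14.6, 1.97 and 4.75 CPM with IFNa and no count in WT. Against 3 counts over the WT group it was at least 91.7-fold higher in A20iKO and at least 68.4-fold higher with IFNa, bounds that cover counting error only and not the spread between libraries. The IFNa bound was 29.3 without IFNa library 1, which held most of its counts. Without WT library 1 or 3, which leaves fewer WT counts to set the bound, it was 57.7 and 58.9 in A20iKO and 43.1 and 43.9 with IFNa. The IFNa call did not pass by limma-voom. The list around Eif2ak2 held 9 genes, the other eIF2alpha kinases, the phosphatase arm and the stress response. Of these, Ddit3 was lower in A20iKO (33.2 ± 8.96 CPM) than in WT (74.8 ± 32.2 CPM, edgeR adjusted p = 0.0239). This call was lost without A20iKO library 2 or 3 or WT library 1 and in the 2-group fit (0.056). Ddit3 was also lower in A20iKO than with IFNa (111 ± 23.6 CPM, edgeR adjusted p = 0.00407). That call held with each library left out and in every other setting. None of the 9 was called with IFNa against WT by edgeR, DESeq2 or limma-voom, and 1 had an unadjusted p under 0.05 by edgeR, as did 12.7% of all genes. None of 3 tested dynamin relatives of the Mx genes and none of 4 tested genes of RNA editing and the MAVS pathway was called by edgeR in either comparison with WT. At an unadjusted p under 0.05 the dynamin count was 1 in each, and the editing and MAVS count was 2 in A20iKO and 0 with IFNa. At that level 22.3% of all genes passed in A20iKO and 12.7% with IFNa. DESeq2 and limma-voom called no dynamin relative, and each called 1 gene of the editing and MAVS list, Ikbke, higher in A20iKO. Ikbke had 20.2 ± 3.93 CPM in A20iKO, 2.01 ± 0.85 with IFNa and 1.34 ± 2.31 in WT (SD, n = 3 each). Its WT values rest on 0, 30 and 0 counts, and its edgeR adjusted p in A20iKO against WT was 0.0693. By edgeR it passed without WT library 2, with no low-count filter, with the replicate block and with the stromal covariate.

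**Figure D3:**
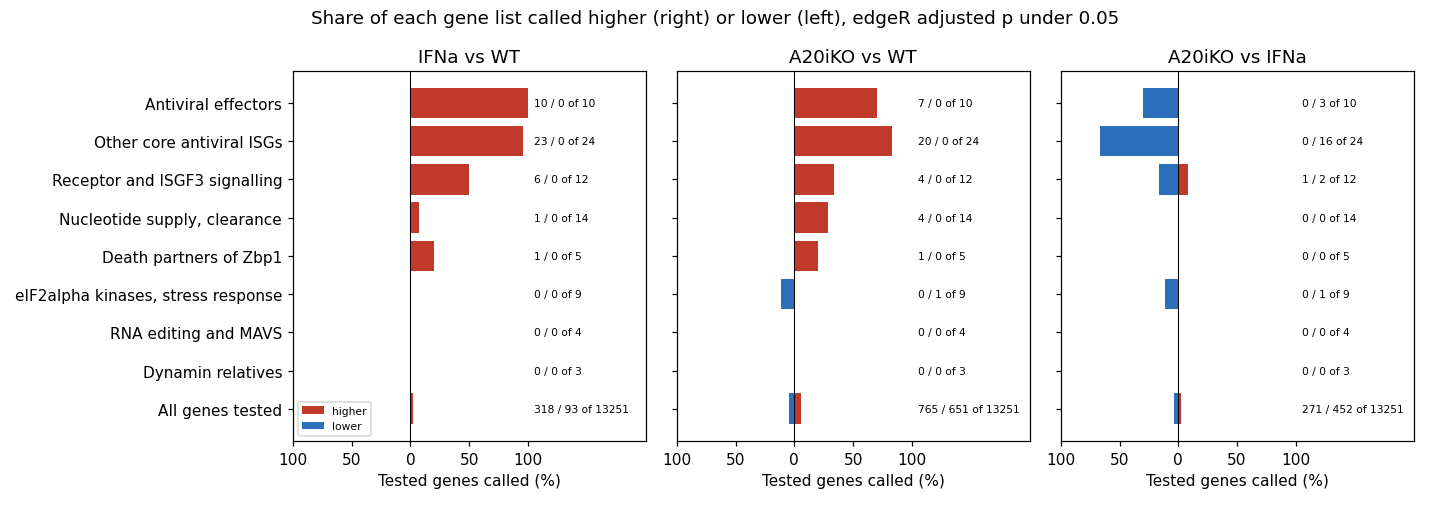
Percent of the tested genes of each list (horizontal axis) called higher, to the right, or lower, to the left, by edgeR in the 3 comparisons. Numbers give higher and lower calls of the genes tested. The 10 effectors and the other core antiviral genes have the longest bars with IFNa, 10 of 10 and 23 of 24, while all genes tested, in the bottom row, have 318 higher and 93 lower of 13251.

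The genes whose pattern was most like that of the 10 were ranked by Pearson correlation of log2 CPM with the members' mean standardised profile over the 9 libraries, among 8140 named genes with a mean of at least 10 CPM. Pml, which builds nuclear bodies and is itself interferon-stimulated, came first with r = 0.999, at 109 ± 27.3 CPM in A20iKO, 230 ± 21.2 with IFNa and 32.1 ± 4.15 in WT (SD, n = 3 each). Ifi47, Iigp1, Slfn2 and the class I gene H2-K1 followed with r = 0.995, 0.994, 0.992 and 0.991. Among the members themselves r with this mean ran from 0.873 for Cmpk2 to 0.991 for Rsad2. The closest single gene was Irf7 for Rsad2 (r = 0.995), Oas1a for Zbp1 (r = 0.992), Ddx60 for Cmpk2 (r = 0.981), Trim34a for Bst2 (r = 0.983), Slfn9 for Isg20 (r = 0.983), Ifi27l2a for Eif2ak2 (r = 0.989) and Tap1 for Adar (r = 0.969). It was Agtpbp1 for Mx1 (r = 0.986), Frmd4a for Mx2 (r = 0.975) and Mier3 for Samhd1 (r = 0.995). The 9 points fall in 3 groups that share their treatment, so these values mainly order genes by how the group means lie and carry no test. They also leave out the size of a change. Agtpbp1 was at 36.6 ± 2.41 CPM with IFNa and 25.3 ± 2.66 in WT (edgeR adjusted p = 0.378), and passed in none of the 3 comparisons.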

How the data were processed

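The authors deposited raw gene-level counts, whole numbers listed by symbol, separately for each library. Per the labels' protocols, total RNA was made into libraries with the QuantSeq 3' FWD kit. Per the submitters' processing notes, the tools were featureCounts 2.0.6, STAR 2.7.10b, Bowtie2 and fastp 0.23.1, and the build was GRCm39. What each tool did, which annotation was used, and how strand and multiply matching reads were handled is not given.

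The filterByExpr function of edgeR (count at least 10, total at least 15) left 13251 genes with 99.83% of all counts. edgeR 4.0.16 (R 4.3.3) fitted all 9 libraries with 3 group means and TMM factors by quasi-likelihood, without a replicate block. Benjamini-Hochberg adjustment ran over these genes, and calls were made at 0.05. Standard errors were derived from the F statistic, and 95% intervals of log2 fold changes use the fit's total degrees of freedom. They cover 1 gene at a time. The fit was also run on counts simulated from the spread estimated in these data. Such a run checks the code, not whether the real libraries meet the model's assumptions. Each library was counted as 1 replicate, following the titles. Library pairs within a group differed beyond sampling noise (chi-square per degree of freedom at least 14.4). That value cannot show whether the libraries come from separate mice, since differences in sorting or stromal content would also raise it.

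The text names all 10 members, Tnfaip3, up to 4 genes of smallest p per pathway list and comparison, and the genes of most similar profile. Genes named outside this rule, such as the cell type markers, Col1a1, Trex1, Trim25, Gm26637 and the partners given by name, were chosen after their values were seen. The members and lists were chosen with earlier results of these data known. Alternatives were other scaling factors, other filters, DESeq2 1.42.0, limma-voom (limma 3.58.1), 2-group fits, a replicate block, a stromal covariate, counts without the abundant Gm26917, and leaving out each library. 1 gene of the signalling list is not reported by name here.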

Additional observations from a re-analysis of the deposited data

How the results depend on the processing

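No member changed direction in any of the 20 other settings, scaling alternatives included, and of 600 member values 556 stayed on their side of the threshold, 19 lost a call and 25 gained one. The count of members called with IFNa against WT was 10 in every setting. In A20iKO against WT it was 4 to 7 with single libraries left out, the lowest without A20iKO replicate 3, where Cmpk2, Bst2 and Adar were lost. In A20iKO against IFNa it was 2 to 6 with single libraries left out, the highest without WT replicate 2, 8 with no low-count filter, 8 by limma-voom, 5 by DESeq2, 5 with the stromal covariate and 6 in the 2-group fit; the cause was not tested. Over all genes, DESeq2 called 700 with IFNa against WT and 1143 in A20iKO against IFNa, and the stromal covariate gave 735 and 1251, against 411 and 723 by the edgeR fit. Leaving out single libraries gave 283 to 426 genes for IFNa against WT, 919 to 1406 for A20iKO against WT (919 and 942 without A20iKO replicate 2 and 3) and 400 to 888 for A20iKO against IFNa (400, 440, 421 and 450 without IFNa replicate 1 and 2 and A20iKO replicate 2 and 3). Scaling by library size alone moved the all-gene median log2 change to -0.148 with IFNa and to 0.119 in A20iKO against IFNa. The share of higher calls then went to 60.9%, against 77.4%, and to 49.3%, against 37.5%. Deviations of same-numbered libraries from their group means correlated at -0.371 to 0.237, and 1 of 9 pairs exceeded 0.1. The 3 libraries of highest stromal level, which have different numbers, correlated at 0.264, 0.35 and 0.358. These values show no clear pairing by the titles' replicate numbers, but cannot exclude it. With the replicate number as a block, 10, 6 and 3 members and 298, 1075 and 535 genes were called in IFNa against WT, A20iKO against WT and A20iKO against IFNa. Counts of Cmpk2 and Zbp1 were low in WT, with 0 of Cmpk2 in WT library 3 and 1 of Zbp1 in WT library 2. WT library 2, the smallest library, held 34 counts of Cmpk2.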
